A study of Mus musculus with 2 samples.

Results

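The 9 genes described here encode the granule enzymes of cytotoxic lymphocytes and the proteins that carry, release or restrain them: the granzymes Gzma, Gzmb, Gzmk and Gzmc, the pore protein Prf1, the granule membrane protein Nkg7, the death ligand Fasl, the granule proteoglycan Srgn and the granzyme B inhibitor Serpinb9. They are 9 of the 22337 gene symbols in the expression matrix, and all 9 were found in it. The members were chosen from measured values: their mean levels across the annotated cell types, and the higher Gzma of Trm-like cells from BM12 WT grafts, were known from an earlier fit of these data. Their order across types is therefore given as a description with no test, and the Gzma difference is not independent support for itself.

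The study transplanted Bm12 hearts into C57BL/6 (B6) recipients and isolated graft cells at postoperative day (POD) 14 to ask how IL-33 made by the graft shapes the cells that enter it. Bm12 mice carry an altered class II molecule that B6 CD4+ T cells recognise. The donors of 3 hearts were Bm12 mice with intact Il33 (labelled BM12 WT, hearts 1, 2 and 3) and the donors of the other 3 were Bm12 mice lacking Il33 (labelled BM12 IL33 KO, hearts 4, 5 and 6). Recipients were B6 in both groups, so that IL-33 was missing from the donor heart alone and recipient cells could still make it. Cells were taken from a density gradient, so their proportions are those of the gradient fraction. Each heart was marked with its own hashtag antibody, the hearts were pooled, and RNA was captured with the 10x 3' kit. Levels are counted in unique molecular identifiers (UMIs), the tags that tell captured transcripts apart. The deposited annotation gives 1 of 14 types to each of 4441 cells and does not separate donor from recipient cells.

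The hearts held 866, 230 and 1666 cells (BM12 WT) and 836, 284 and 559 cells (BM12 IL33 KO), with 908137 to 7012943 UMIs a heart and a median of 3698 UMIs a cell. Il33 itself had 7, 0 and 121 UMIs in the fibroblasts of the BM12 WT hearts and 9, 3 and 5 in those of the BM12 IL33 KO hearts, so this 3' readout does not check the labels. Some type names went only in part with their markers. Of 347 cells annotated as NKT cells, 59.4% had a UMI of any of 5 T cell markers, against 97.5% of Trm-like cells and 30.7% of NK cells. Cells annotated as unconventional T cells had UMIs of at least 2 macrophage markers in 91.6% of cases and of a T cell marker in 84.3%, at a median of 10175 UMIs a cell. Of 266 cells annotated as Tcm, 78.9% had a UMI of any of 8 NK cell markers, against 45.3% of Trm-like cells. No Cd4, Cd8a or Cd8b1 UMI was found in 69.9% of Tcm cells. The names are kept below only as the annotation's labels. Trm-like cells had UMIs of 7 of 8 NK cell markers, with Ncr1 at 0.

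Cytotoxic lymphocytes store granzymes and perforin in acidic granules, bound to the proteoglycan serglycin (Srgn), and release them at the contact with a target cell. Perforin opens the target membrane and the granzymes, which are serine proteases, enter and cleave proteins that lead to cell death, while Fas ligand acts through a death receptor on the target surface. Serpinb9 inactivates granzyme B inside cells that could be harmed by it. In heart grafts, NK cells and CD8+ T cells are the best known bearers of this machinery.

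Of the 4 granzyme genes, Gzma and Gzmk lie beside each other on chromosome 13 of GRCm38 (13:113093825-113100981 and 13:113171608-113225908, both on the minus strand), and Gzmb (14:56258838-56262260) and Gzmc (14:56231441-56234656) lie in the granzyme cluster of chromosome 14, also on the minus strand. Gzmc has near-identical neighbours there, so that its counts are uncertain. Prf1 is at 10:61297833-61304680 on the plus strand. Gene positions above are from GENCODE, whose starts of Gzmb and Prf1 differ from those of RefSeq, used for the windows and motif positions below. The 250 bases before the RefSeq start of Gzma, Gzmb and Prf1 are shown because these genes, all highest in NK cells, carry the comparisons with Trm-like cells below. They are RefSeq sequences of GRCm38.p6 at chr13:113100982-113101231 (Gzma, minus strand), chr14:56262335-56262584 (Gzmb, minus strand) and chr10:61297586-61297835 (Prf1, plus strand), written 5' to 3' along the gene, with capitals for matches on either strand to the motifs searched.
Gzma: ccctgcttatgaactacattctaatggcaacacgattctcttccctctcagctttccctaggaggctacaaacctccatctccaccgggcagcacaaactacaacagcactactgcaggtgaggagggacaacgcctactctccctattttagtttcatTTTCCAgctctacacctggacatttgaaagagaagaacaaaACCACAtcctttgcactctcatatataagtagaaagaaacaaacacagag
Gzmb: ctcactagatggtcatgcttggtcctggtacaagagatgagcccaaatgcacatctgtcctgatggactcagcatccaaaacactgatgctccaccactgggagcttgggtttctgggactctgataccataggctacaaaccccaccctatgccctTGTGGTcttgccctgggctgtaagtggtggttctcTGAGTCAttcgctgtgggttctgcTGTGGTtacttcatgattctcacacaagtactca
Prf1: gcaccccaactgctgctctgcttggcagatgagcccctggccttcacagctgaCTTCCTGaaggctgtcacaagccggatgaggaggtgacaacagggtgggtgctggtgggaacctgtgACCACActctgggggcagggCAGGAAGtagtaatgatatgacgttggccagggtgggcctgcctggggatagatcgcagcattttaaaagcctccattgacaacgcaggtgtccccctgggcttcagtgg
All 3 windows held the Runx letters TGTGGT, which lie at -50 to -45 of Gzma, at -130 to -125 of Prf1, and at both -93 to -88 and -34 to -29 of Gzmb. These letters occurred in 13.9% of 32619 promoter windows of the same length. The AP-1 letters TGANTCA matched in Gzmb at -58 to -52 and in 6.78% of all windows. The Ets letters CAGGAAG matched at 2 places in Prf1 and in 10.9% of all windows, and the NFAT letters TGGAAA matched in Gzma and in 18.7%. The T-box letters GGTGTGA (3.36% of all windows) matched in Gzmk and Nkg7 but in none of the 3 sequences printed. A match describes letters and no more.

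Gzma, a granzyme that cleaves after basic residues, was carried mainly by NK cells and cells annotated as NKT. NK cells averaged 7855, 5131 and 7575 CPM (a UMI count scaled to the UMI total of its cell, as a mean over the cells of a type) in BM12 WT hearts 1 to 3 and 4451, 4290 and 6470 CPM in BM12 IL33 KO hearts 4 to 6. NKT cells had 5699, 5270 and 4714 CPM in the BM12 WT hearts against 3287, 2373 and 5163 CPM in the BM12 IL33 KO hearts. NK cells exceeded NKT cells in 5 of 6 hearts, although the ranges over hearts overlapped. Together the NK and NKT cells held 56.1% and 31.5% of the 30890 Gzma UMIs, from 21.0% and 7.81% of the cells. Trm-like cells came next, at a mean of 1151 CPM over hearts (SD 863), with all 3 BM12 WT hearts (2356, 1142 and 2016 CPM) above all 3 BM12 IL33 KO hearts (204, 524 and 665 CPM).

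Below the Trm-like cells, Gzma averaged 490 CPM in unconventional T cells (SD 377), 324 in Tcm (SD 280), 233 in Tem/eff (SD 157) and 168 in Treg (SD 189), neighbours that do not differ beyond their spread over the 6 hearts. B cells, which should not make granzyme A, had 71.1 CPM (SD 33.3), and Tn and monocytes had 70.5 and 49.3 CPM, so that levels of this size may be read as background. After each cell was thinned to 1500 UMIs, 92.2% of NK cells had a Gzma UMI (95% exact interval 90.2 to 93.8), as had 74.1% of NKT cells (69.1 to 78.6), 33.1% of Trm-like cells (28.3 to 38.3) and 7.34% of B cells (4.60 to 11.0). The shares without thinning were 94.5%, 82.7%, 39.2% and 13.3%, at median depths of 2712, 5742, 2706 and 2292 UMIs. Such intervals cover counting error only. Within NK cells the tenth of cells with the most Gzma held 28.5% of its UMIs, against 36.7% in NKT cells and 76.7% in Trm-like cells. Trm-like Gzma thus came from few cells, while nearly every NK cell had it.

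Gzmk, a granzyme related to Gzma and known from memory-type CD8+ T cells, had a different pattern. It was highest in Trm-like cells, with 308, 72.1 and 121 CPM in the BM12 WT hearts and 74.1, 114 and 244 CPM in the BM12 IL33 KO hearts. The groups overlapped. Tem/eff cells followed at a mean of 37.4 CPM (SD 28.5) and were below Trm-like cells in all 6 hearts, while NK cells, in which Gzma peaked, had 6.09 CPM (SD 2.39). Trm-like and Tem/eff cells held 54.3% and 25.1% of only 311 Gzmk UMIs. No Gzmk UMI was found in B cells, monocytes, Tn or cDCs, and 0 of 286 B cells allows a share of up to 1.05% of cells with a UMI. The thinned share in Trm-like cells was 16.9% (13.1 to 21.1), and 25.1% without thinning.

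Gzmb, which cleaves after aspartate and activates caspases, followed NK and NKT cells as Gzma did. NK cells had 973, 559 and 1294 CPM in the BM12 WT hearts and 906, 436 and 682 CPM in the BM12 IL33 KO hearts. NKT cells had 710, 656 and 833 CPM against 902, 473 and 509 CPM. The 2 types overlapped over hearts, and in both of them the graft groups overlapped as well. Trm-like cells (mean 280 CPM, SD 143) exceeded Treg (165 CPM, SD 64.4) in 5 of 6 hearts. Treg, the regulatory CD4+ T cells, had Gzmb UMIs in every heart, from 94.3 to 249 CPM, and B cells had 9.16 CPM (SD 12.8). The thinned share was 50.7% (47.4 to 54.0) of NK cells, 46.4% of NKT cells, 22.9% of Trm-like cells and 2.10% of B cells, against 62.2%, 68.0%, 30.9% and 3.15% without thinning.

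Among myeloid types, Gzmb reached 456 CPM in the cDCs of heart 4 and 384 CPM in the Mo-DCs of heart 3. A few cells held most of the Gzmb UMIs of cDCs and 39.8% of those of Mo-DCs. Of 171 cDCs, 4 cells with UMIs of at least 2 of 6 mast cell and basophil markers held 143 of the 207 Gzmb UMIs (69.1%) and averaged 5502 CPM, against 46.4 CPM in the other cDCs. Of 204 Mo-DCs, 3 such cells held 47 of 118 UMIs and averaged 7347 CPM, against 128 CPM in the others. The marked cells came from hearts 3, 4 and 6, and all 47 of those UMIs in Mo-DCs were from heart 3.

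Gzmc was nearly limited to NKT cells, at 62.0, 27.4 and 27.2 CPM in the BM12 WT hearts and 206, 66.6 and 56.8 CPM in the BM12 IL33 KO hearts. These values rest on 21, 4 and 14 UMIs against 79, 9 and 24 UMIs. NK cells had 1, 0 and 6 Gzmc UMIs in the BM12 WT hearts and 22, 4 and 0 in the BM12 IL33 KO hearts, so hearts 4 and 5 held most of them. A thinned share of 4.61% of NKT cells (2.66 to 7.38) had a Gzmc UMI, and 8.93% did without thinning. Trm-like cells had none in 362 cells, which allows a share of up to 0.829% of cells with a UMI.

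Prf1, the perforin gene, was high in NK and NKT cells and low elsewhere. NK cells had 832, 813 and 1112 CPM in the BM12 WT hearts and 660, 533 and 585 CPM in the BM12 IL33 KO hearts, without overlap. In NKT cells the values were 586, 409 and 586 CPM against 400, 294 and 406 CPM, again without overlap though by a small margin. Trm-like cells, the third type for Gzma, averaged only 59.9 CPM of Prf1 (SD 13.1), close to unconventional T cells (54.8 CPM, SD 47.5) and Tcm (53.7 CPM, SD 59.2), from which they did not differ beyond the spread. Thinned shares with a Prf1 UMI were 57.6% in NK cells (54.3 to 60.8), 37.2% in NKT cells, 8.01% in Trm-like cells (5.43 to 11.3) and 2.10% in B cells, and 70.7%, 66.0%, 13.3% and 3.15% without thinning.

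The balance of Gzma with other members in Trm-like cells differed between the graft groups, in UMIs pooled over the hearts of a group. The ratios below in part restate the Gzma difference known beforehand, and they were not tested. For each Prf1 UMI there were 39.3 Gzma UMIs in the Trm-like cells of BM12 WT hearts and 6.79 in those of BM12 IL33 KO hearts, from only 29 and 28 Prf1 UMIs. NK cells had 7.41 and 8.96, and NKT cells 8.80 and 10.5, so Trm-like cells had the highest of these ratios in BM12 WT hearts and the lowest in BM12 IL33 KO hearts. The ratio was also higher in BM12 WT hearts in Treg (16.6 and 4.20), cDCs (15.7 and 6.87) and Tem/eff (9.79 and 4.76), from few Prf1 UMIs. The same held in the remaining types except fibroblasts (7.51 and 8.50). For each Nkg7 UMI, Trm-like cells had 3.41 Gzma UMIs in BM12 WT and 0.805 in BM12 IL33 KO hearts, below NK cells (6.42 and 5.89) and NKT cells (5.00 and 4.77) in both groups. Of all UMIs of the 4 granzymes, Gzma took 86.8% in BM12 WT and 87.6% in BM12 IL33 KO NK cells, 85.4% and 83.0% in NKT cells, and 77.2% and 54.3% in Trm-like cells. In Treg, 1 cell held 100 of the 187 Gzma UMIs, and without it Gzma took 42.6% and Gzmb 54.9%.

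Nkg7, which takes part in granule release, was spread over more lymphocyte types. NK cells (mean 953 CPM, SD 157) and NKT cells (940 CPM, SD 138) did not differ beyond their spread, and Trm-like cells followed with 528 CPM (SD 93.0), Tem/eff with 372 CPM (SD 94.6), Tcm with 342 CPM (SD 96.5) and Treg with 316 CPM (SD 69.1). B cells had 19.9 CPM (SD 27.2). The thinned share was 72.7% of NK cells, 69.7% of NKT cells, 45.9% of Trm-like cells and 4.20% of B cells (87.3%, 96.8%, 62.7% and 5.94% without thinning). Nkg7 was thus present in Treg and Tem/eff (thinned shares of 29.7% and 32.7%), whose thinned Prf1 shares of 2.66% and 3.36% were near the 2.10% of B cells. Trm-like cells, at 8.01% for Prf1, were above B cells.

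Fasl, the membrane ligand of the death receptor Fas, was highest in NK cells, with 198, 275 and 226 CPM in the BM12 WT hearts and 185, 182 and 176 CPM in the BM12 IL33 KO hearts. Trm-like cells (139 CPM, SD 57.3), NKT cells (126 CPM, SD 28.9) and Tcm (107 CPM, SD 63.7) overlapped one another, and B cells had 4.36 CPM (SD 4.02). A Fasl UMI was found in 24.7% of thinned NK cells (22.0 to 27.6; 39.0% without thinning) and in 0 of 286 thinned B cells.

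Srgn, the core protein that packs granzymes but is also made by myeloid cells, was no marker of the cytotoxic types here. It was highest in Mo-DCs, at 2989 CPM (SD 335), followed by monocytes (2267 CPM, SD 455), and lowest in fibroblasts (282 CPM, SD 111). NK cells, at 1761 CPM (SD 205), lay among Treg, macrophages and cDCs, types that did not differ beyond their spread. A Srgn UMI was found in 96.1% of thinned monocytes (100% without thinning) and in 70.6% of thinned B cells.

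Serpinb9, the inhibitor of granzyme B, was highest in the same types as Gzmb. NK cells had 493, 607 and 692 CPM in the BM12 WT hearts and 741, 915 and 664 CPM in the BM12 IL33 KO hearts, and NKT cells had 696, 687 and 931 CPM against 702, 490 and 565 CPM. The 2 types overlapped over hearts. The next types were cDCs (251 CPM, SD 136), Tcm (240 CPM, SD 65.8) and Trm-like cells (228 CPM, SD 76.8), which overlapped. Its thinned share was 55.3% in NKT cells, 54.0% in NK cells and 3.50% in B cells (87.9%, 70.5% and 5.59% without thinning).

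**Figure D1:**
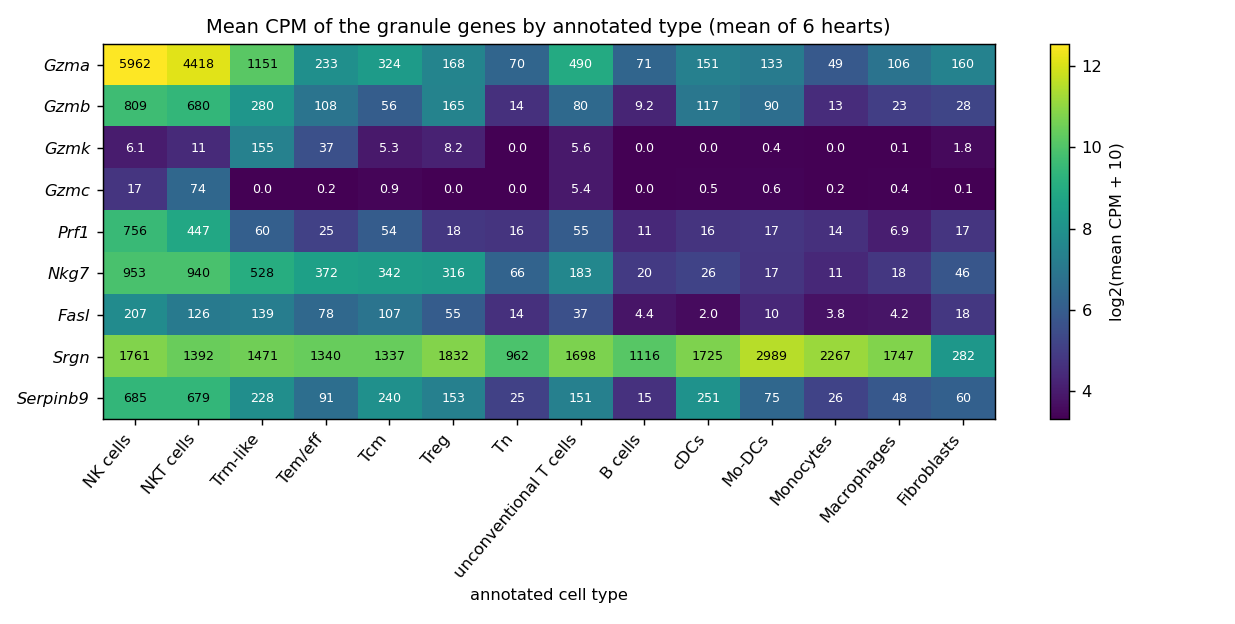
Mean level of each of the 9 genes (vertical axis) in the 14 annotated types (horizontal axis), as the mean of 6 hearts, printed in CPM and coloured by log2(mean CPM + 10). Gzma, Gzmb, Prf1, Nkg7, Fasl and Serpinb9 have their highest mean in NK cells, with NKT cells close for Nkg7 and Serpinb9. Gzmk peaks in Trm-like cells (mean 155 CPM), Gzmc in NKT cells (mean 74.4 CPM) and Srgn in Mo-DCs.

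Across the 14 types, the genes most like each member among 6307 genes (Pearson correlation of mean levels, over 14 types that share hearts and depth) were mostly other genes of cytotoxic cells. The closest to Gzma were Prf1 (0.957), the NK receptor gene Klre1 (0.935) and Car2 (0.927), and those closest to Prf1 were Gzma and the NK receptor genes Klra9 (0.957) and Klrb1c (0.947). Gzmb was closest to Serpinb9 (0.929), Gpr160 (0.908) and Gzma (0.905), and Serpinb9 to another serpin gene, Serpinb6b (0.955), to Gzmb and to Pik3r1 (0.925). Nkg7 was closest to Fasl (0.974), the IL-2 receptor gene Il2rb (0.970) and Cysltr2 (0.964), and Fasl to Nkg7, Il2rb (0.965) and the cathepsin gene Ctsw (0.951). Gzmc was nearest to Cant1 (0.884), Klri2 (0.875) and Klra4 (0.849). Gzmk went instead with Zdhhc2 (0.824), Cd8a (0.823) and Ncapd2 (0.798), and Srgn with the leukocyte signalling gene Hcls1 (0.934), AI662270 (0.933) and Edem1 (0.930). Within thinned NK cells, Gzma UMIs went with those of Gzmb (Spearman 0.466) and Prf1 (0.429), whereas with Serpinb9 the coefficient was -0.01.

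How many of the granule genes a single cell carried was counted over 5 of them (Gzma, Gzmb, Prf1, Nkg7 and Fasl) after thinning. At least 3 of 5 were found in 65.2% of NK cells, 49.3% of NKT cells and 15.5% of Trm-like cells, and in at most 7.23% of any other type. NK cells with at least 3 of 5 made up 68.6%, 52.8% and 74.1% of those in the BM12 WT hearts and 51.4%, 42.4% and 50.4% in the BM12 IL33 KO hearts. In NKT cells the shares were 52.0%, 70.6% and 59.0% against 39.1%, 28.6% and 47.0%. In Trm-like cells they were 28.4%, 15.0% and 16.0% against 6.78%, 3.03% and 12.7%. In each of the 3 types every BM12 WT heart was above every BM12 IL33 KO heart, a separation for which an exact permutation test of 3 against 3 gives its smallest p of 0.1. The margin was small in NK cells (52.8% against 51.4%), and heart 2 had 3 such cells of 20 Trm-like cells. Gzma is 1 of the 5 genes and its Trm-like difference was known beforehand, so the separation is a description and not independent support.

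**Figure D2:**
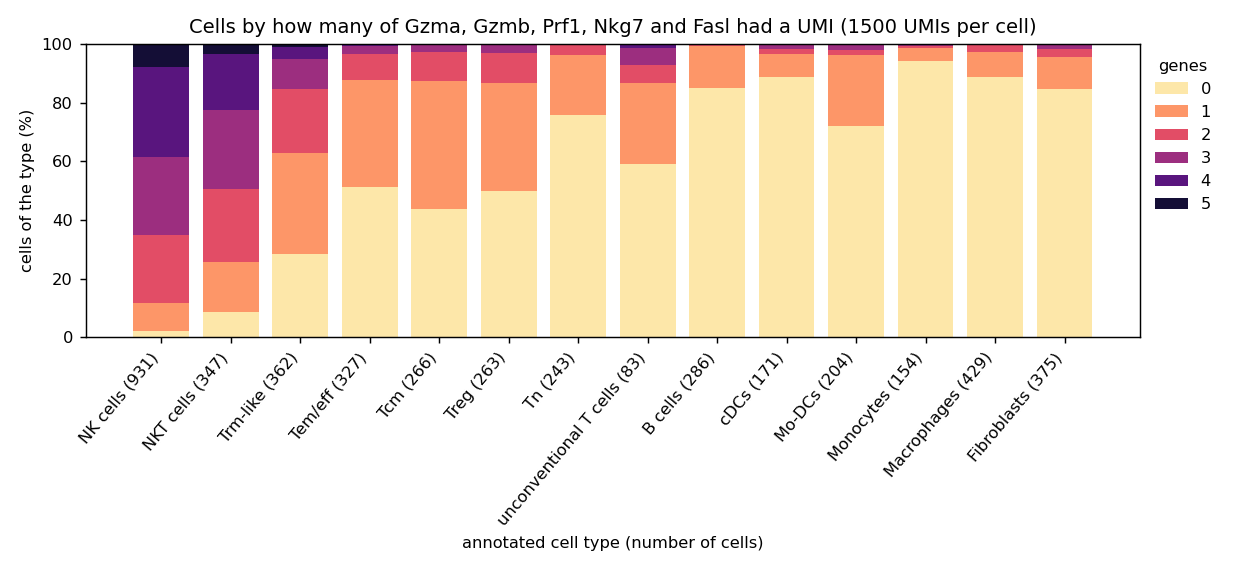
Share of cells, in percent, with 0 to 5 of the genes Gzma, Gzmb, Prf1, Nkg7 and Fasl in each annotated type, every cell thinned to 1500 UMIs. NK cells (65.2% with at least 3) and NKT cells (49.3%) stand apart from Trm-like cells (15.5%) and from the rest.

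The graft groups were then compared, to ask whether the absence of IL-33 from the donor heart went with other levels of these genes in any type. Mean CPM of each heart was compared on the log2(CPM + 10) scale with limma over all genes of a type, and differences are given as BM12 WT over BM12 IL33 KO with n = 3 hearts a group. Of the 126 pairs of a member and a type, 98 had enough UMIs to be tested. Only 1 passed the adjusted p of 0.05, Gzma in Trm-like cells, where over all genes and types 0.00884% passed. At an unadjusted p of 0.05, 18 pairs were higher in BM12 WT hearts and 6 in BM12 IL33 KO hearts, and over all genes and types 2.42% and 2.29% were. A 2-fold difference together with that p was met by 8 pairs, 3 of them higher in BM12 WT, where 2.67% of all tests met it. In 8 pairs all BM12 WT hearts lay above all BM12 IL33 KO hearts, and 4.87% of all tests did so. The BM12 IL33 KO hearts all lay above for Fasl in Tn, Gzmk in NK cells and Serpinb9 in cDCs. The share of all tests that did so is not given here, so those pairs cannot be set against it. Because the genes were chosen with a difference in view and share cells and hearts, these counts describe the members only.

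In Trm-like cells, Gzma was 4.15-fold higher in BM12 WT hearts (log2 difference 2.05, SE 0.27, limma adjusted p = 0.000357), at 2356, 1142 and 2016 CPM against 204, 524 and 665 CPM. All 3 hearts of one group exceeded all 3 of the other. The exact permutation p was 0.1, the smallest that 3 against 3 hearts can give. These means rest on 424, 42 and 675 UMIs in 81, 20 and 106 cells and on 34, 46 and 110 UMIs in 59, 33 and 63 cells. The call was lost with 1 CPM added in place of 10 (2.08, adjusted p = 0.257) and with a robust variance estimate (2.05, SE 0.58, adjusted p = 0.917), and without any 1 heart the difference stayed between 1.56 and 2.39. In these cells at an unadjusted p of 0.05 higher in BM12 WT, Gzma was joined by Gzmb only (2.46% of all genes tested there): its log2 difference was 0.87 (SE 0.31, adjusted p = 0.923), at 340, 221 and 523 CPM against 94.5, 255 and 245 CPM, with overlap. Gzmk (0.12, SE 0.40, adjusted p = 0.989) did not pass, and its sign turned in some alternatives. The Prf1 levels of Trm-like cells, at 65.4, 55.5 and 43.6 CPM against 47.5, 75.7 and 71.7 CPM, overlapped between the groups.

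The share of Trm-like cells with a Gzma UMI after thinning was 45.7%, 25.0% and 38.7% in the BM12 WT hearts and 13.6%, 27.3% and 31.7% in the BM12 IL33 KO hearts. The groups overlapped in this share, through heart 2, but not in the mean level.

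Within the Trm-like cells, Gzma UMIs lay mostly in cells that also had a UMI of the NK marker list. The summed level of the 8 NK markers was 517, 148 and 461 CPM in the BM12 WT hearts and 304, 204 and 420 CPM in the BM12 IL33 KO hearts, with overlap and with heart 2 lowest. The list is not specific to NK cells, since 99.5% of macrophages and 93.0% of cDCs had a UMI of it. Of 362 Trm-like cells, 164 had an NK marker UMI, and these held 77.2% of the Gzma UMIs (2245 CPM, against 659 CPM in the others). With them left out, Gzma averaged 892 CPM in BM12 WT and 358 CPM in BM12 IL33 KO hearts, a log2 difference of 1.31 (SE 0.24, limma adjusted p = 0.0429) with the groups still apart. How much of the difference these cells carry beyond that was not tested.

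The study describes its T cell subtypes as CD4+ cells, and the coreceptor genes were therefore read in the Trm-like cells. A UMI of Cd8a or Cd8b1 without Cd4 was found in 188 cells (51.9%), and one of Cd4 without either CD8 gene in 45 cells. Gzma in the CD8 cells was 3192, 3262 and 2778 CPM in the BM12 WT hearts and 214, 224 and 639 CPM in the BM12 IL33 KO hearts. The Cd4 cells had 85.9, 0 and 38.9 CPM against 71.7, 109 and 106 CPM, levels like those of B cells. Cells with neither had 1547, 816 and 1566 CPM against 233, 997 and 848 CPM and overlapped. These values rest on 47, 5 and 57 cells against 27, 11 and 41. A fit of all 191 Trm-like cells with a CD8 UMI, the 3 with a Cd4 UMI as well included, was added after the data were seen. Their Gzma was 3125, 2718 and 2778 CPM against 207, 224 and 639 CPM. The log2 difference was 3.17 (SE 0.28, limma adjusted p = 2.65e-08). That SE rests on a variance drawn toward a trend over all genes and can be smaller than the hearts' own spread gives. An exact permutation test of 3 against 3 hearts can give no p below 0.1. Heart 2 held only 6 of these cells and heart 5 only 11. Since the Gzma difference was known beforehand, this fit is a description and not independent support. The CD8 share of Trm-like cells was 58.0%, 25.0% and 53.8% in BM12 WT and 45.8%, 33.3% and 65.1% in BM12 IL33 KO hearts, so the groups did not separate by it. Gzmb in the same 191 cells was 522, 446 and 805 CPM against 165, 507 and 322 CPM, a log2 difference of 0.91 (SE 0.34, adjusted p = 0.907), and Gzmk was 345, 240 and 147 CPM against 123, 341 and 339 CPM.

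**Figure D3:**
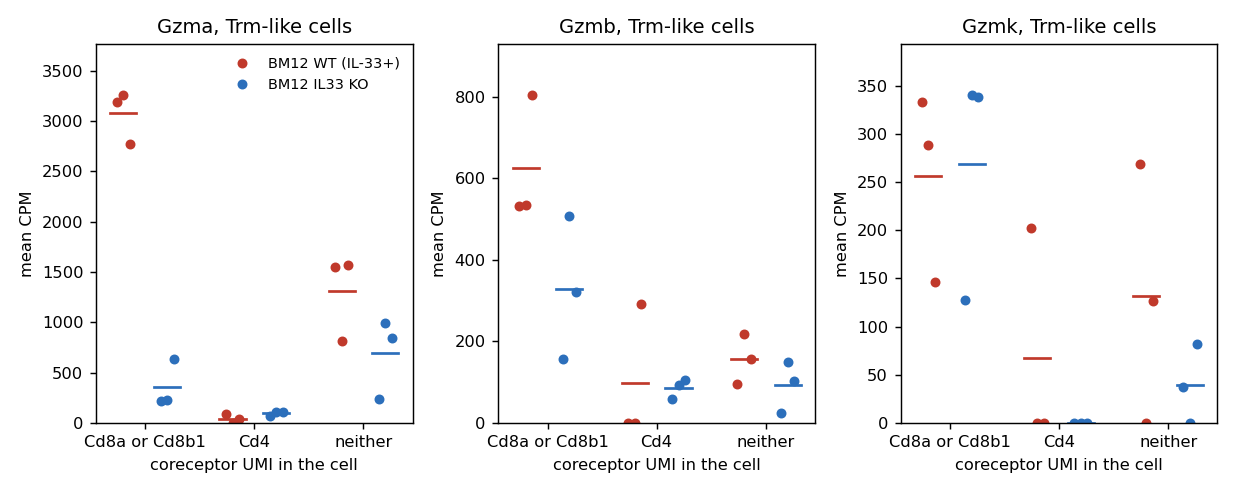
Gzma, Gzmb and Gzmk in Trm-like cells with a CD8 UMI only, a Cd4 UMI only or neither, in mean CPM, 1 point a heart, red for BM12 WT and blue for BM12 IL33 KO, with a line at the group mean. In CD8 cells Gzma is 2778 to 3262 CPM in the 3 BM12 WT hearts and 214 to 639 CPM in the 3 BM12 IL33 KO hearts, while Gzmk overlaps.

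In NK cells, 4 members had an unadjusted p of 0.05 or less with the higher mean in BM12 WT hearts, where 3.26% of all genes tested in NK cells did, and none passed the adjusted p. Prf1 came nearest, at a log2 difference of 0.62 (SE 0.13, limma adjusted p = 0.209) with no overlap between the groups. Gzma differed by 0.43 (SE 0.13, adjusted p = 0.46), Gzmb by 0.46 (SE 0.22, adjusted p = 0.846) and Nkg7 by 0.27 (SE 0.12, adjusted p = 0.846), all with overlap. With limma-voom, Prf1 (0.76) and Gzma (0.55) were called in NK cells, both at an adjusted p of 0.00782. Fasl was apart between the groups (0.34, SE 0.18, adjusted p = 0.846) without reaching an unadjusted p of 0.05. Serpinb9, whose product restrains granzyme B, had the opposite sign (-0.37, SE 0.14, adjusted p = 0.836), as had Gzmc (-1.44, SE 0.51, adjusted p = 0.743), which had 33 UMIs in 931 NK cells.

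In NKT cells, 7 of 9 members had a log2 difference above 0, that is, higher in BM12 WT, where 45.5% of all genes tested in NKT cells did. At an unadjusted p of 0.05, 4 were higher in BM12 WT, against 1.84% of all genes tested in NKT cells: Gzma (0.60, SE 0.16), Prf1 (0.51, SE 0.17), Serpinb9 (0.39, SE 0.15) and Nkg7 (0.31, SE 0.13). Prf1 and Nkg7 did not overlap between the groups, and Gzma overlapped through heart 6. The limma adjusted p was 0.851 for Gzma and 0.924 for the other 3. Gzmc was lower in BM12 WT (-1.15, SE 0.37, adjusted p = 0.924), with heart 4 far above the rest. The median log2 difference of the members was 0.31 in NKT cells, 0.27 in NK cells and 0.10 in Trm-like cells, beside -0.04, 0.01 and -0.02 over all genes tested in those types.

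In other T cell types Gzma had the larger mean in BM12 WT hearts, without passing the adjusted p. In Tem/eff cells it was 491, 206 and 308 CPM against 68.7, 81.2 and 242 CPM, a log2 difference of 1.42 (SE 0.30, limma adjusted p = 0.436). A single cell with a CD8 UMI held 125 UMIs in heart 3, whose mean without it was 56.7 CPM. Treg had 117, 126 and 551 CPM against 76.1, 67.6 and 69.8 CPM (1.40, SE 0.43, adjusted p = 0.707), with no overlap and with heart 3 far above the others. Here too a single cell with a CD8 UMI held 100 Gzma UMIs in heart 3, whose mean without it was 150 CPM. Tcm had 217, 881 and 241 CPM against 95.5, 243 and 263 CPM (0.94, SE 0.32, adjusted p = 0.951), with heart 2 highest. When T cells with an NK marker UMI were left out, the log2 difference of Gzma was 0.03 in Tem/eff, 0.70 in Treg and -0.70 in Tcm, where 5, 2 and 19 cells against 12, 11 and 7 were left. Gzmb in Tem/eff, at 0.64 (SE 0.28, adjusted p = 0.998) with all cells, then was -1.77. The NK markers summed to 43 to 141 CPM in Tem/eff and to 486 to 1255 CPM in Tcm over the 6 hearts, both with overlap between the groups. In unconventional T cells and monocytes Gzma had the opposite sign (-1.84, SE 0.80, and -1.58, SE 0.76; limma adjusted p = 0.984 and 0.965). Heart 2 had 2 unconventional T cells with no Gzma UMI, and Gzma in monocytes was at the level of B cells. The unconventional T value turned to 2.52 without cells that held markers of 2 lineages, which left 3, 0 and 5 cells against 5, 1 and 1, and to 0.09 without heart 2.

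Of the remaining pairs, Fasl in Tcm had 79.8, 140 and 222 CPM in BM12 WT and 54.7, 68.9 and 76.3 CPM in BM12 IL33 KO hearts (0.94, SE 0.32, limma adjusted p = 0.951), with no overlap. Gzmk in Tem/eff differed by 1.00 (SE 0.40, adjusted p = 0.998), with overlap. Serpinb9 in cDCs had 235, 34.9 and 209 CPM against 287, 290 and 452 CPM, a log2 difference of -1.37 (SE 0.48, adjusted p = 0.62) with every BM12 IL33 KO heart above every BM12 WT heart. Heart 2 held only 6 cDCs. Srgn in macrophages was 1846, 2277 and 1862 CPM against 1416, 1472 and 1609 CPM (0.41, SE 0.18, adjusted p = 0.987), without overlap. In Mo-DCs, where it was highest, Srgn differed by 0.16 (SE 0.42, adjusted p = 1.0), and in unconventional T cells by 0.49 (SE 0.23, adjusted p = 0.984), with overlap in both. Over the 98 pairs the log2 differences ran from -1.84 to 2.05.

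**Figure D4:**
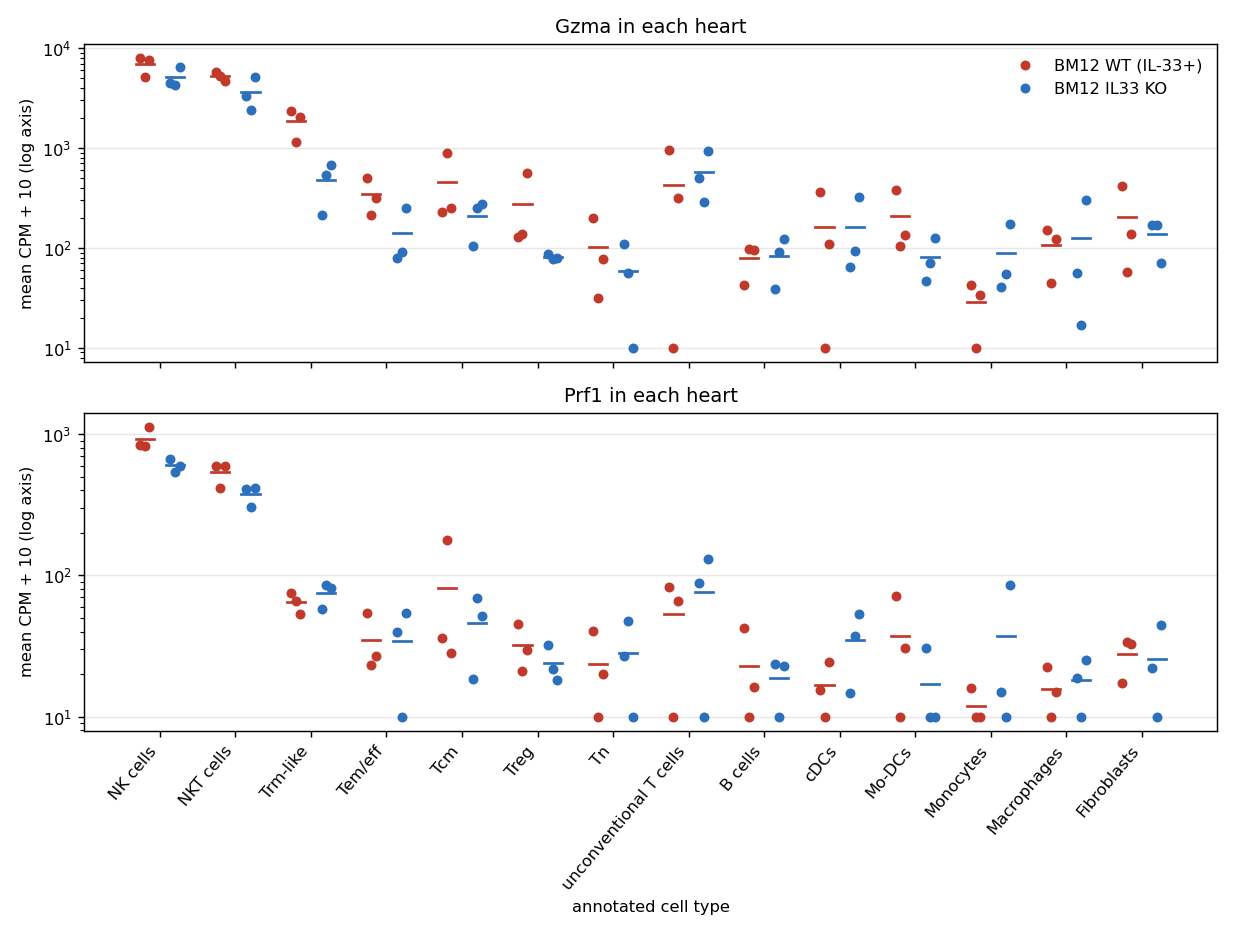
Gzma (top) and Prf1 (bottom) in the 14 annotated types, as mean CPM + 10 on a log axis, 1 point a heart, red for BM12 WT and blue for BM12 IL33 KO, with a line at the group mean. Gzma in Trm-like cells is 1142 to 2356 CPM in BM12 WT and 204 to 665 CPM in BM12 IL33 KO hearts, while Prf1 in the same cells overlaps.

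**Figure D5:**
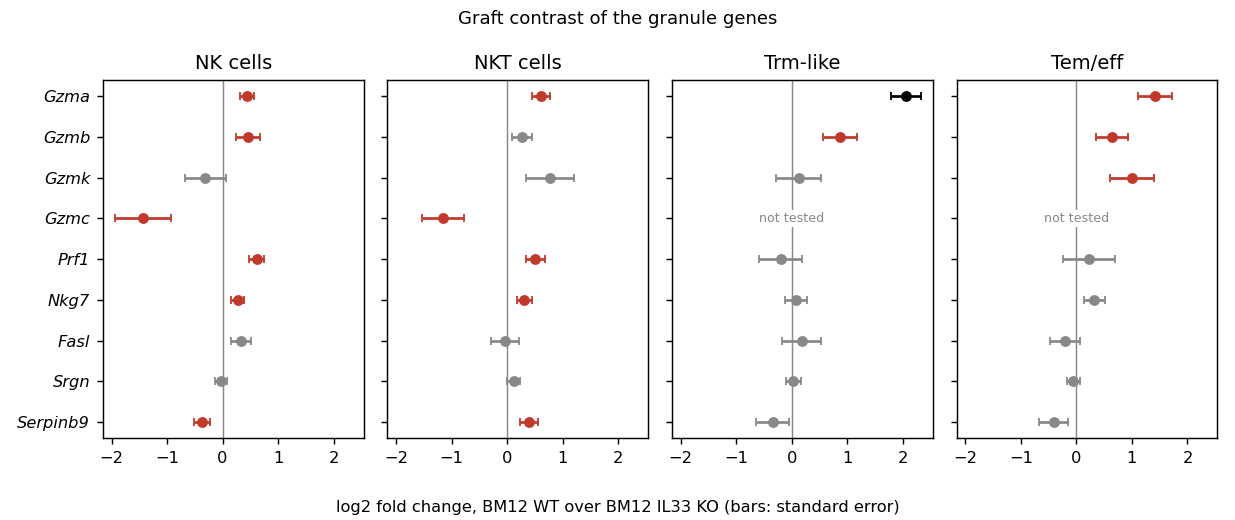
Log2 difference (BM12 WT over BM12 IL33 KO) of each member tested in NK, NKT, Trm-like and Tem/eff cells, with bars of 1 SE. Gzma in Trm-like cells (2.05) is drawn in black as the only value past the adjusted p of 0.05, red marks an unadjusted p of 0.05 or less, and grey marks the rest.

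The Gzma difference in Trm-like cells was set against that in other types as a difference of differences, with each heart supplying both types. Since the Trm-like difference was known when the genes were chosen, these values describe it and are not independent support. The contrast in Trm-like cells exceeded that in NK cells by 1.62 on the log2 scale (SE 0.22, limma adjusted p = 0.00089), where 0.026% of genes passed. Without any 1 heart the difference was 1.20 to 1.89, with the highest adjusted p at 0.0117. Against NKT cells it was 1.45 (SE 0.32, adjusted p = 0.945), against Tcm 1.12 (adjusted p = 0.954), against Treg 0.66 (adjusted p = 0.981) and against Tem/eff 0.64 (adjusted p = 0.949), none of which passed. The comparisons with NKT cells and with Tcm passed only without heart 2, at 1.77 and 2.06.

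Other genes of cytotoxic granules and their control were read from 8 lists of 66 genes, of which 64 were in the matrix. None was called at the adjusted p in any type by limma, while 33 of 722 tests had an unadjusted p of 0.05 or less with BM12 WT higher and 24 with BM12 IL33 KO higher, beside 2.42% and 2.29% over all genes and types. By list, those counts were 2 and 3 of 60 tests for other granzymes and granule proteases, 0 and 2 of 66 for granule content and membrane, 3 and 4 of 155 for granule transport and exocytosis, 7 and 4 of 57 for death ligands and cytokines, 5 and 2 of 38 for serpin inhibitors, 4 and 2 of 110 for the target cell death pathway, 3 and 4 of 119 for receptors of cytotoxic cells, and 9 and 3 of 117 for their transcription factors. Eomes, a transcription factor of NK cells, had 1167, 1278 and 1140 CPM in BM12 WT against 996, 570 and 927 CPM in BM12 IL33 KO NK cells (0.56, SE 0.15, adjusted p = 0.286). The chemokine gene Ccl5 had 3986, 4375 and 4149 CPM against 3165, 2406 and 3829 CPM in NK cells (0.44, SE 0.11, adjusted p = 0.247). Both were apart between the groups. In Trm-like cells Ifng, the interferon gamma gene, had 116, 73.1 and 129 CPM against 57.2, 33.3 and 54.0 CPM (0.99, SE 0.38, adjusted p = 0.923), also without overlap. By the rule for naming, genes of the lists that were also apart between the groups with an unadjusted p of 0.05 or less were, in NK cells, the signalling gene Stat4 (0.42, SE 0.17), the cytokine receptor gene Il12rb2 (0.41, SE 0.19) and the cathepsin gene Ctsl, lower in BM12 WT (-0.67, SE 0.28). In NKT cells they were Eomes (0.53, SE 0.16), the serpin gene Serpinb6b (0.56, SE 0.17), the Fc receptor gene Fcgr3 (0.80, SE 0.37) and the receptor gene Klrc1, lower in BM12 WT (-0.79, SE 0.22), and in Trm-like cells Stat4 (0.49, SE 0.23). None of these passed the adjusted p (limma, 0.836 to 0.924).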

How the data were processed

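Single-cell RNA was measured in 6 Bm12 heart grafts (3 BM12 WT, 3 BM12 IL33 KO). The authors aligned reads to mm10 with Cell Ranger, removed likely doublets and low-quality cells by limits on counts and genes in Partek 10.0.23.0425 (submitters' processing notes), and deposited log2 values of CPM + 1 for each gene and cell, with a deposited table of each cell's type, genotype and hashtag. Hearts were grouped by the labels, and cells were tied to hearts by their hashtag. Individual UMIs were recovered from the step within each cell (99.94% of low values within 0.05 of a whole number). No column of per-sample values was left unused. The annotated types were used as given, and no cell was removed.

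The mean CPM of each type was taken per heart, and log2(CPM + 10) was compared with limma 3.58.1 in R 4.3.3 (trend on mean level) for genes with 10 or more UMIs in all and UMIs in 3 or more hearts. p-values were adjusted by the Benjamini-Hochberg method over all genes of a type, with a threshold of 0.05. They rest on the spread between 3 hearts a group, after each gene's variance was drawn toward a trend over all genes of the type. Their SE can therefore be smaller than the hearts' own spread gives. Fold changes on this scale understate those of low genes. Single values used the two-sided exact permutation test, whose smallest p here is 0.1. Shares used cells thinned to 1500 UMIs, with exact Clopper-Pearson intervals at 95%. A count of 0 was given the limit of 3 counts. Depth was 908137 to 7012943 UMIs a heart, and in rare types a heart's mean rests on few UMIs. The fits were also run on simulated hearts, with summed UMIs and the same spread setting for all genes, unlike the data. The outcome is not given here, and no result rests on it. Promoters were RefSeq windows of GRCm38.p6, and gene positions are from GENCODE vM21. Python 3.11.15 with numpy 2.4.6, pandas 2.3.3, scipy 1.17.1 and matplotlib 3.10.9 was used elsewhere.

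The 9 members, the pathway and marker lists and the tests were chosen with earlier results of these data known. Fold changes are given for each member in its highest type, for Gzma in Trm-like cells and where the unadjusted p was 0.05 or less, and for pathway genes in NK, NKT or Trm-like cells with that p and groups that did not overlap (up to 5 a type). The 3 genes most like each member were sought among genes at 50 CPM or more in some type. Alternatives changed the pseudocount, the filter, the scaling, the variance model, the use of summed UMIs, the cells kept and the hearts. The fit of Trm-like cells with any CD8 UMI, and hearts left out of the differences between types, were added after the data were seen.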

Additional observations from a re-analysis of the deposited data

Results flagged for a closer look

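The graft difference of Gzma was larger in Trm-like cells than in NK cells by 1.62 on the log2 scale (SE 0.22, limma adjusted p = 0.00089), from 2.05 in Trm-like cells and 0.43 in NK cells. Groups of 3 hearts are too small for the test of single outlying hearts, so none was run. The SE of this difference rests on a variance drawn toward a trend over all genes. An exact permutation test of 3 against 3 hearts can give no p below 0.1. The Trm-like value was known when the genes were chosen, so this difference is a description and not independent support.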

How the results depend on the processing

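No paired analysis was possible because the labels number the BM12 WT hearts 1 to 3 and the BM12 IL33 KO hearts 4 to 6, so that the groups share no number. The only member called at the adjusted p, Gzma in Trm-like cells, was lost with 1 CPM added (2.08, with 0 members called) and with robust eBayes (2.05, 0 called), and the cause was not tested. It kept its call without any 1 heart (1.56 to 2.39). Over all types, 2 member genes were called with no filter beyond 1 UMI, 3 with limma-voom, and 1 to 3 without 1 heart (2 without each BM12 WT heart, 3 without heart 6). The 8 pairs at 2-fold and an unadjusted p of 0.05 became 5 with robust eBayes, 5 without cells of 2 lineages, and 6 to 12 without 1 heart. Without 1 heart, the Gzma contrast in Trm-like cells exceeded that in NK cells by 1.20 to 1.89, in NKT cells by 0.99 to 1.88, in Tcm by 0.56 to 2.06, in Treg by 0.07 to 1.25 and in Tem/eff by 0.45 to 1.01. The sign turned for Gzma in Tcm (-0.70) and Gzmb in Tem/eff (-1.77) without T cells that held an NK marker, for Gzma in unconventional T cells without cells of 2 lineages (2.52) or without 1 heart (-3.20 to 0.089), and for Gzmk in Trm-like cells with summed UMIs (-0.073), in cells with a CD8 UMI (-0.073) and without 1 heart (-0.42 to 0.56). Without thinning the shares were 94.5% (Gzma), 62.2% (Gzmb), 70.7% (Prf1), 87.3% (Nkg7) and 39.0% (Fasl) of NK cells, 8.93% (Gzmc) and 87.9% (Serpinb9) of NKT cells, 25.1% (Gzmk) of Trm-like cells and 100% (Srgn) of monocytes. With 20 to 106 Trm-like cells a heart, depth limits Gzmk, Gzmc and Prf1 there.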

Other observations

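Over all cells of a heart, without regard to type, Gzma averaged 1978, 1794 and 2679 CPM in the BM12 WT hearts and 903, 872 and 2391 CPM in the BM12 IL33 KO hearts, with overlap through heart 6. The NK share of cells was 16.2% to 28.5% in the BM12 WT hearts and 11.6% to 22.4% in the BM12 IL33 KO hearts. Prf1 over all cells was 191, 239 and 365 CPM against 131, 114 and 215 CPM, again with overlap through heart 6. Srgn lay between 1402 and 1648 CPM in all 6 hearts. Gzmc over all cells was 3.94, 2.03 and 3.26 CPM in the BM12 WT hearts and 25.6, 10.3 and 8.44 CPM in the BM12 IL33 KO hearts, with no overlap, from 198 UMIs in all. NKT cells held 151 of these UMIs. Their share of cells was 5.77%, 7.39% and 6.00% in the BM12 WT hearts and 8.25%, 9.86% and 14.8% in the BM12 IL33 KO hearts, also without overlap. How far the Gzmc values go with that share was not tested.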
